A study of Homo sapiens with 8 samples.

Results

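Solute carriers are the membrane proteins that move sugars, amino acids, ions, metals, vitamins and other small molecules across the plasma membrane and the membranes of organelles, and each family is named SLC with a number. Most are secondary transporters, which means that they couple the movement of a substrate to a gradient of sodium, protons or another solute, or let it move down its own gradient. In human embryonic stem cells (hESCs) they supply amino acids, sugars and vitamins for rapid growth, and the SLC25 carriers link the cytosol with the mitochondrial matrix.

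The members were all probes whose current gene symbol begins with SLC, a family number, the letter A and a digit, apart from SLC2A1, SLC2A3, SLC16A3, SLC7A11 and SLC7A5, which were left out. By this rule 415 of the 24526 probes on the array, for 326 genes in 56 families, were members. Of these genes, 7 match by the letters of the name only and are not themselves listed here as transporters (SLC2A4RG, SLC4A1AP, SLC7A5P2, SLC7A6OS, SLC67A1-AS, SLC19A4P and SLC22A20P). The symbols were placed in 16 classes by substrate, and 8 tested genes of families outside these classes were kept apart.

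Transcripts were measured in hESCs on 8 Illumina human-8 BeadChip arrays, 2 for each of 4 conditions, after 5 days of culture on Matrigel in N2B27 medium. The -bFGF cells received no added cytokine, the +bFGF cells bFGF at 24 ng/ml, the +IL-11 cells IL-11 at 10 ng/ml, and the +IL-11+bFGF cells both at these doses. The labels name the line H1 and the paper H9, both established hESC lines, and neither source tells if separate cultures were used for the 2 arrays of each condition. The p-values therefore cover only how these arrays vary, possibly for technical reasons, and the number of arrays limits the precision.

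A level below is the normalized log2 intensity of a gene's probe, and levels are set side by side only for the same probe. A probe was detected on an array when its detection p-value was under 0.01, and a gene was tested when its probe was detected on the pair of arrays of 1 or more conditions. A difference was called when its p-value from a limma fit, adjusted by Benjamini-Hochberg over all 9269 genes tested, was under 0.05, and only such differences are said to rise or fall. The arrays are bulk samples, so fewer cells of a type and less RNA per cell cannot be told apart.

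The arrays detected 44.8% to 48.0% of all probes, with median intensities of 113 to 121 before normalization. The array of -bFGF replicate 2 stood apart: 10.2% of the genes tested lay over 0.5 (log2) from their median over the 8 arrays on it, against 3.86% to 6.64% on the other arrays, and 19 transporters did so against 2 to 7. All 7 stem cell markers on the array were detected on all 8 arrays, and with bFGF 5 of them were higher and 1 lower. The summed linear level of the neural crest and sensory neuron markers lay between 6651 and 8086 on the 4 arrays without bFGF and between 2214 and 3059 on the 4 with it. All 6 of its 8 markers that were tested fell, NGFR was undetected on all 8 arrays and PAX3 was detected on 1. With bFGF, FOXD3 was detected on 0 arrays and POU4F1 on 1. Both thus passed the detection filter only through conditions without bFGF, so their falls are in part set by it. The sum of the fibroblast-like markers lay between 26002 and 33196 without bFGF and between 19890 and 24984 with it, with 4 of 6 tested markers lower and THY1, which hESCs also carry, higher, while LUM and POSTN were undetected on every array. The part of these markers in the transporter results was not tested.

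Of the 326 transporter genes, 148 were tested, through 165 detected probes, and 131 of these were detected on all 8 arrays. The other 178 genes did not pass the filter, and 163 of them had no probe detected on any array. The classes differed in how many of their genes were read. Nucleotide sugar and Golgi or ER carriers were tested in 10 of 11 genes, carriers of iron, copper, magnesium and haem in 6 of 8, mitochondrial carriers in 27 of 45 and amino acid carriers in 20 of 37. Transporters of neurotransmitters and vesicles were tested in 5 of 31 and organic ion and drug transporters in 5 of 20. No gene passed in 8 families, among them SLC17 with 9 genes on the array (vesicular glutamate and phosphate carriers), SLC18 with 3 (vesicular amine and acetylcholine carriers), SLC32 with 1 (the vesicular GABA carrier) and SLC28 with 2 (concentrative nucleoside carriers). For a gene that was not detected, these arrays give no level and do not show that the transcript is absent.

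**Figure D1:**
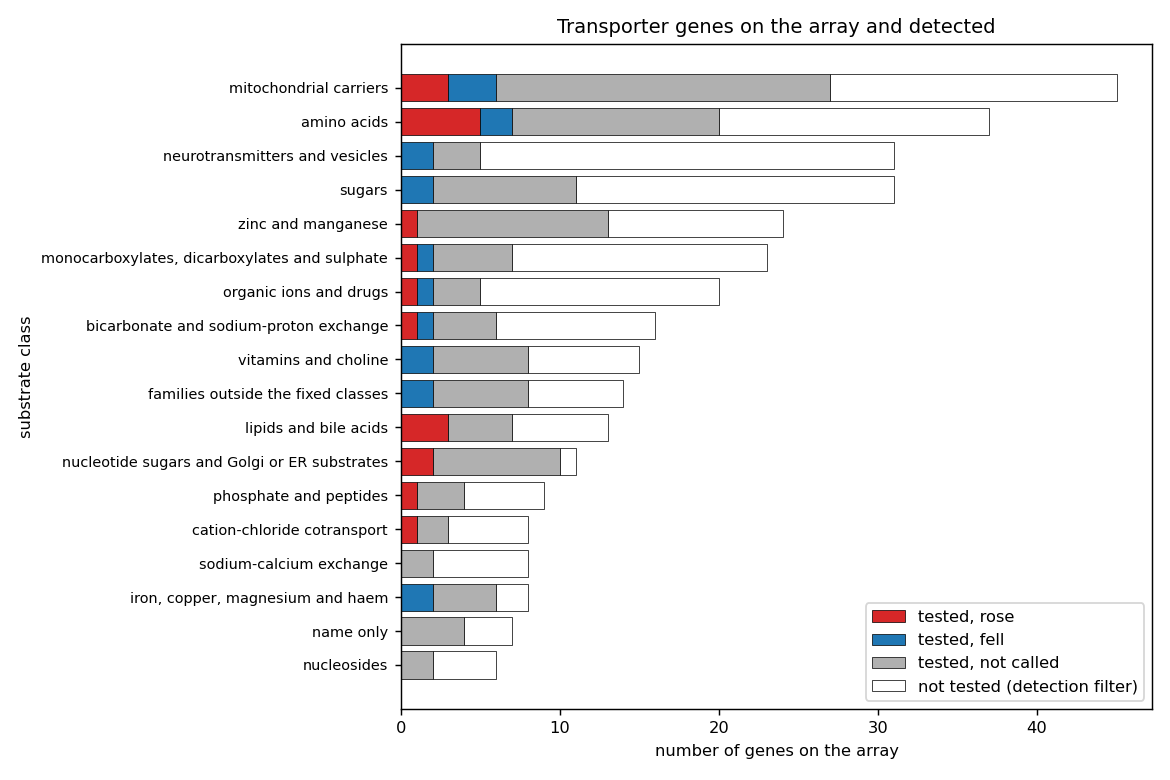
Number of transporter genes on the array (horizontal axis) by substrate class (vertical axis), split by colour into genes that rose, fell or were not called between the 4 arrays with bFGF and the 4 without, and genes that did not pass the detection filter. Mitochondrial carriers, with 27 of 45 genes tested, form the longest bar, and 5 of 31 neurotransmitter and vesicle genes were tested.

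The question of what bFGF does to hESCs with and without IL-11 was addressed first over all 8 arrays, as the mean of the change without IL-11 and the change with it. Of the 148 transporters, 37 were called (25.0%, against 27.8% of all genes tested), 19 higher with bFGF (12.8%, against 13.4% of all genes) and 18 lower (12.2%, against 14.5%). These shares were near those of all genes, so the count is not a result about the transporters. The median log2 change was -0.02 for the transporters and -0.01 for all genes, and the median size of the change without regard to sign was 0.15 and 0.17. Of the 37 changes, 13 were over 1.5-fold and 2 over 2-fold, and the 4 arrays with bFGF did not overlap the 4 without in 32 of them, as measured. Of the 37, 34 were detected on all 8 arrays (19 higher and 15 lower), 29 of these without overlap. The other 3, SLC40A1, SLC52A3 and SLC1A4, passed the detection filter only through conditions without bFGF, where they were high, so their falls are in part set by the filter. All 3 are among the 13 over 1.5-fold, with folds that use undetected signals. With undetected arrays set to their lowest detected signal, the fold was 2.04 for SLC40A1 and 1.04 for SLC52A3. SLC1A4 was then not lower (log2 difference 0.04). The counts over 1.5-fold and 2-fold are not set beside those of all genes here. When only genes detected on all 8 arrays were tested, 33 of 131 transporters were called, 19 higher and 14 lower, against 2206 of 8336 genes. In all, 38 of the 148 transporters did not overlap, and 30.8% of all genes did not. Without -bFGF replicate 2, 33 transporters and 2186 of the 9269 genes were called.

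The organic ion family member SLC22A23, whose substrate is not known, showed the largest rise. Its level was 8.12 and 8.34 on the -bFGF arrays, 7.99 and 8.20 on the +IL-11 arrays, 9.45 and 9.13 on the +bFGF arrays and 9.29 and 9.11 on the +IL-11+bFGF arrays. Every array with bFGF was above every array without it, and the mean difference was 2.12-fold (log2 change 1.08, SE 0.11, adjusted p = 1.07e-04). The sodium bicarbonate cotransporter SLC4A7 (NBCn1), which brings base into the cell, read 9.64 and 9.77 in -bFGF, 9.73 and 9.71 in +IL-11, 10.60 and 10.21 in +bFGF and 10.56 and 10.52 in +IL-11+bFGF, so the 2 sets of arrays did not overlap (1.7-fold higher, log2 change 0.76, SE 0.09, adjusted p = 3.07e-04). A second bicarbonate carrier, the chloride-bicarbonate exchanger SLC4A2 (AE2), went the other way, at 8.26 and 8.63 in -bFGF, 8.25 and 8.16 in +IL-11, 7.80 and 7.97 in +bFGF and 7.87 and 7.76 in +IL-11+bFGF. It was 1.39-fold lower with bFGF (log2 change -0.48, SE 0.11, adjusted p = 0.0101). None of the other 4 tested genes of the bicarbonate and sodium-proton exchange class was called.

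Genes of metal transport changed in both directions. The zinc, manganese and iron importer SLC39A14 (ZIP14) was at 8.80 and 8.79 on the -bFGF arrays, 8.92 and 8.78 on the +IL-11 arrays, 9.61 and 9.60 on the +bFGF arrays and 9.68 and 9.37 on the +IL-11+bFGF arrays. All 4 arrays with bFGF lay above the others, 1.67-fold on average (log2 change 0.74, SE 0.09, adjusted p = 3.30e-04). It was 1 of 13 tested genes of the SLC30 zinc exporters and SLC39 importers, and the other 12 were not called, with log2 changes between -0.13 (SLC39A6) and 0.21 (SLC39A10). SLC40A1, ferroportin, the cellular iron exporter, had the largest fall. Its level was 6.63 and 7.94 on the -bFGF arrays, 7.23 and 7.92 on the +IL-11 arrays, 5.89 and 6.54 on the +bFGF arrays and 5.92 and 6.39 on the +IL-11+bFGF arrays, and the lowest array without bFGF stood just above the highest with it. The probe was detected on all 4 arrays without bFGF and on 2 of 4 with it. The fit on the signals as measured gave a 2.37-fold lower mean (log2 change -1.25, SE 0.29, adjusted p = 0.0112), and the fold was 2.04 with the undetected arrays, +bFGF replicate 1 and +IL-11+bFGF replicate 1, set to the lowest detected signal of each. Under the methods' t-test its adjusted p was 0.0516. The proton-coupled iron importer SLC11A2 (DMT1) was also lower, at 11.28 to 11.38 on the 4 arrays without bFGF and 10.95 to 11.19 on the 4 with it (1.22-fold, log2 change -0.28, SE 0.07, adjusted p = 0.0121). The other 4 tested genes of the iron, copper, magnesium and haem class were not called, and the class median was -0.15.

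Amino acid carriers of the SLC1, SLC3, SLC7, SLC36, SLC38 and SLC43 families gave 5 rises and 2 falls among 20 tested, with a class median of -0.11. Of all genes tested, 13.4% rose and 14.5% fell. The cationic amino acid importer SLC7A1 (CAT1) read 10.45 and 10.34 in -bFGF, 10.46 and 10.68 in +IL-11, 10.93 and 11.07 in +bFGF and 11.01 and 10.87 in +IL-11+bFGF. The arrays with bFGF were all higher (1.4-fold, log2 change 0.49, SE 0.08, adjusted p = 0.00147). SLC7A8 (LAT2), the light chain of a neutral amino acid exchanger, read 8.58 and 9.22 in -bFGF, 8.50 and 8.37 in +IL-11, 9.30 and 9.40 in +bFGF and 9.38 and 9.15 in +IL-11+bFGF. Here -bFGF replicate 2 was high and overlapped the arrays with bFGF, and the mean was 1.56-fold higher (log2 change 0.64, SE 0.13, adjusted p = 0.00655; adjusted p = 0.0650 by the methods' t-test). SLC43A3, which carries purine nucleobases although its family holds amino acid carriers, was at 6.37 and 6.32 in -bFGF, 6.68 and 6.42 in +IL-11, 7.16 and 6.83 in +bFGF and 7.00 and 6.74 in +IL-11+bFGF (1.4-fold higher, log2 change 0.48, SE 0.13, adjusted p = 0.0241). Smaller rises were seen for SLC7A3 (CAT3), a second importer of cationic amino acids (1.3-fold, log2 change 0.38, SE 0.10, adjusted p = 0.0221), and for SLC1A5 (ASCT2), an exchanger of glutamine and other neutral amino acids (1.22-fold, log2 change 0.28, SE 0.07, adjusted p = 0.016). The call of SLC43A3 was lost without +bFGF replicate 1 (0.0887), -bFGF replicate 2 (0.0567), +IL-11 replicate 2 (0.0889), +IL-11+bFGF replicate 1 (0.0856), that of SLC7A3 without -bFGF replicate 1 (0.0507), +bFGF replicate 1 (0.0675), +IL-11 replicate 2 (0.0812), +IL-11+bFGF replicate 1 (0.0796) and that of SLC1A5 without +IL-11 replicate 2 (0.0595), +IL-11+bFGF replicate 1 (0.0699), with the adjusted p after leaving out that array in brackets.

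The 2 falls among the amino acid carriers were both in the SLC1 family. SLC1A4 (ASCT1), an exchanger of small neutral amino acids, was detected on the 2 +IL-11 arrays only, with levels of 6.08 and 5.82 on the -bFGF arrays, 6.26 and 6.29 on the +IL-11 arrays, 5.28 and 5.59 on the +bFGF arrays and 5.49 and 5.45 on the +IL-11+bFGF arrays. The fitted log2 change was -0.66 (SE 0.14, adjusted p = 0.00764), which uses undetected signals on 6 of 8 arrays and gives no fold against the detection limit. The gene was tested only because the +IL-11 arrays, on the side without bFGF, detected it, so this fall is given as a description. SLC1A3 (GLAST), a glutamate importer of glial cells, read 7.33 and 7.48 in -bFGF, 7.38 and 7.97 in +IL-11, 6.71 and 7.00 in +bFGF and 6.78 and 7.45 in +IL-11+bFGF, with overlap between the sets (1.47-fold lower, log2 change -0.55, SE 0.18, adjusted p = 0.0455). This call was lost without -bFGF replicate 1 (0.0705), +bFGF replicate 1 (0.132), -bFGF replicate 2 (0.114), +bFGF replicate 2 (0.0623), +IL-11 replicate 2 (0.16), +IL-11+bFGF replicate 1 (0.147). The SLC1A3 call was also lost on the authors' normalized table (adjusted p = 0.0501), with no detection filter (0.0709) and with no intensity trend (0.059). By the methods' t-test its adjusted p was 0.124. None of the 6 tested SLC38 genes, the sodium-coupled neutral amino acid carriers, was called. Among them SLC38A1 had a log2 change of -0.20 and SLC38A2 of 0.09.

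**Figure D2:**
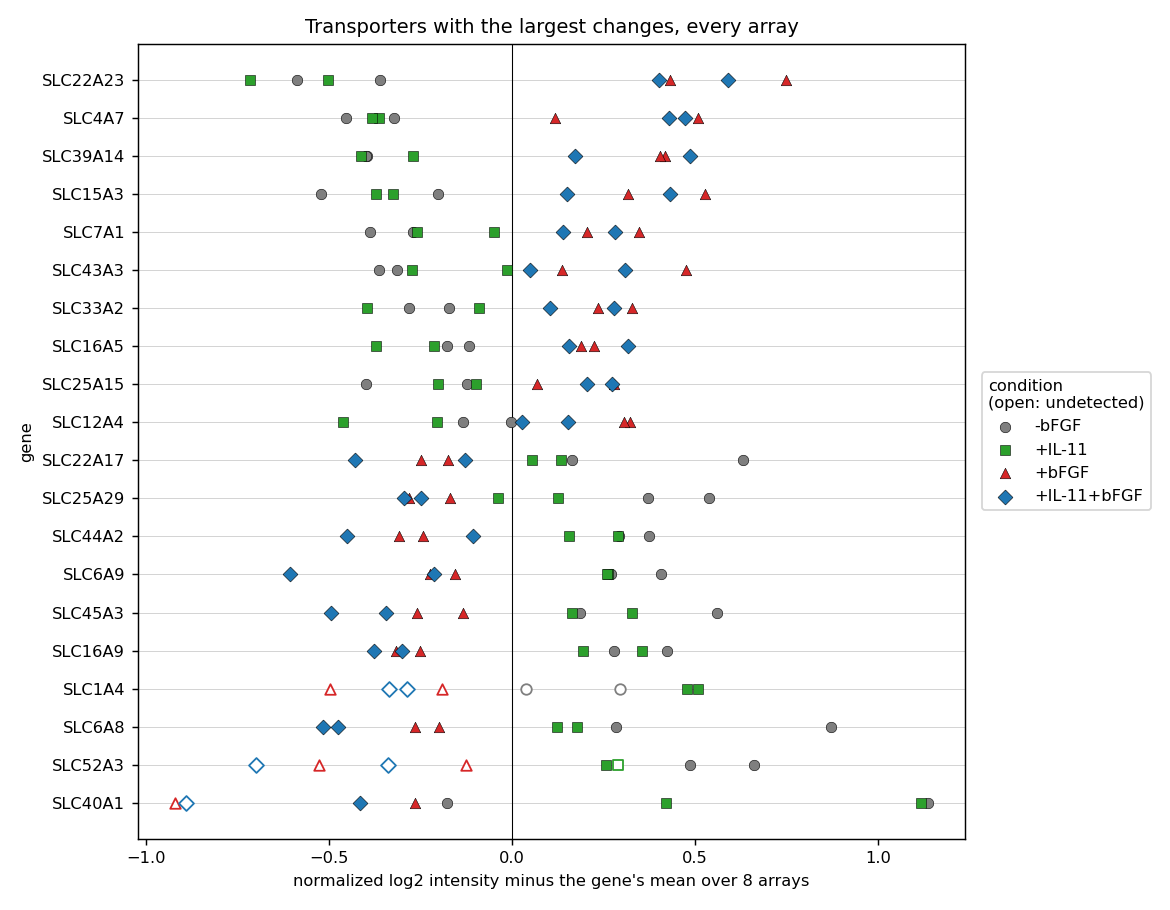
Normalized log2 intensity of 20 transporters on each of the 8 arrays, as the difference from the gene's own mean over 8 arrays (horizontal axis), for the 10 largest rises and 10 largest falls with bFGF whose measured signals did not overlap. Colours and symbols mark the 4 conditions, 2 arrays each, and open symbols mark arrays that did not detect the probe, whose order is not known. They occur for SLC40A1, SLC52A3 and SLC1A4, and in the other rows, all detected, the 4 points with bFGF lie on one side of the 4 without.

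Creatine and glycine carriers of the SLC6 family were lower with bFGF. SLC6A8, which imports creatine, was at 8.80 and 9.39 on the -bFGF arrays, 8.70 and 8.64 on the +IL-11 arrays, 8.25 and 8.32 on the +bFGF arrays and 8.00 and 8.04 on the +IL-11+bFGF arrays. The mean with bFGF was 1.66-fold lower and no array overlapped (log2 change -0.73, SE 0.12, adjusted p = 0.00222). The glycine importer SLC6A9 (GlyT1) read 7.72 and 7.86 in -bFGF, 7.71 and 7.71 in +IL-11, 7.23 and 7.29 in +bFGF and 7.24 and 6.84 in +IL-11+bFGF, again with no overlap (1.51-fold lower, log2 change -0.60, SE 0.12, adjusted p = 0.00426). Neither gene carries its substrate into synaptic vesicles, and the 3 other tested genes of the neurotransmitter and vesicle class, SLC6A13, SLC6A15 and SLC6A16, were not called.

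In the vitamin and choline class 2 of 8 tested genes fell and none rose, while of all genes tested 14.5% fell and 13.4% rose. SLC52A3 (RFVT3), a riboflavin importer, was detected on 3 of 4 arrays without bFGF and on none with it. It was thus tested only through the -bFGF arrays, where it was high. Its level was 6.43 and 6.60 on the -bFGF arrays, 6.23 and 6.20 on the +IL-11 arrays, 5.81 and 5.41 on the +bFGF arrays and 5.60 and 5.24 on the +IL-11+bFGF arrays, where those under the detection limit have no order. On the 2 -bFGF arrays, which both detected it, the level was at least 1.11-fold that of the +bFGF arrays at their detection limits. No bound can be given between +IL-11, where 1 of 2 arrays detected it, and +IL-11+bFGF. The fit over all 8 measured signals gave a log2 change of -0.85 (SE 0.15, adjusted p = 0.00316). SLC44A2, a choline transporter-like protein, read 12.00 and 11.92 in -bFGF, 11.92 and 11.78 in +IL-11, 11.38 and 11.32 in +bFGF and 11.18 and 11.52 in +IL-11+bFGF. All arrays with bFGF were lower (1.47-fold, log2 change -0.56, SE 0.08, adjusted p = 9.65e-04). SLC5A6 (SMVT), which imports biotin and pantothenate and stands in the sugar class by its family, was 1.21-fold lower (log2 change -0.28, SE 0.09, adjusted p = 0.0429). It did not pass on the authors' normalized table (adjusted p = 0.0519), with median scaling (0.0851), with no intensity trend (0.0751) or by the methods' t-test (0.0822). That call was lost without +bFGF replicate 1 (0.135), -bFGF replicate 2 (0.126), +IL-11 replicate 2 (0.141), +IL-11+bFGF replicate 1 (0.108), +IL-11+bFGF replicate 2 (0.0838).

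No glucose transporter of the SLC2 family was called, and the 6 tested, without SLC2A4RG, which matches by name only, had log2 changes from -0.10 (SLC2A12) to 0.48 (SLC2A14, adjusted p = 0.12). SLC2A14 is a near-identical copy of SLC2A3, and the array may not separate them. In the sugar class the other fall was SLC45A3 (prostein), at 8.96 and 9.34 in -bFGF, 8.94 and 9.11 in +IL-11, 8.64 and 8.52 in +bFGF and 8.28 and 8.43 in +IL-11+bFGF (1.53-fold lower, log2 change -0.62, SE 0.10, adjusted p = 0.00219). Among the monocarboxylate carriers the 2 calls were in opposite directions. SLC16A9 (MCT9), linked to carnitine transport, was at 10.63 and 10.49 on the -bFGF arrays, 10.40 and 10.56 on the +IL-11 arrays, 9.96 and 9.89 on the +bFGF arrays and 9.83 and 9.91 on the +IL-11+bFGF arrays. The sets of 4 arrays were apart by 1.54-fold, lower with bFGF (log2 change -0.62, SE 0.07, adjusted p = 2.51e-04). SLC16A5 (MCT6) read 9.29 and 9.23 in -bFGF, 9.19 and 9.04 in +IL-11, 9.63 and 9.60 in +bFGF and 9.72 and 9.56 in +IL-11+bFGF and was 1.36-fold higher (log2 change 0.44, SE 0.08, adjusted p = 0.00276).

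The mitochondrial SLC25 carriers were the largest family, with 27 tested genes. Among them 3 rose and 3 fell, while of all genes tested 13.4% rose and 14.5% fell. SLC25A29, a carrier of basic amino acids, read 8.97 and 9.14 in -bFGF, 8.56 and 8.73 in +IL-11, 8.32 and 8.43 in +bFGF and 8.31 and 8.35 in +IL-11+bFGF, and all arrays with bFGF were lower (1.41-fold, log2 change -0.50, SE 0.09, adjusted p = 0.00273). A dimmer second probe of this gene gave a log2 change of -0.65. SLC25A5, an ADP/ATP translocase, moved little but evenly, from 14.06 to 14.15 without bFGF and from 14.25 to 14.39 with it (1.17-fold higher, log2 change 0.23, SE 0.05, adjusted p = 0.0073). The ornithine carrier SLC25A15 was 1.33-fold higher (log2 change 0.41, SE 0.11, adjusted p = 0.0171) and SLC25A39, needed for mitochondrial glutathione import, 1.15-fold (log2 change 0.20, SE 0.06, adjusted p = 0.0269). The glutamate carrier SLC25A22 was 1.18-fold lower (log2 change -0.24, SE 0.07, adjusted p = 0.0271) and the aspartate/glutamate carrier SLC25A13 1.15-fold lower (log2 change -0.21, SE 0.07, adjusted p = 0.0491). These last 4 calls were the less stable ones. SLC25A15 lost it without +bFGF replicate 2 (0.0648), +IL-11 replicate 2 (0.0611), +IL-11+bFGF replicate 2 (0.0507), and SLC25A39 without -bFGF replicate 1 (0.053), +bFGF replicate 1 (0.0859), -bFGF replicate 2 (0.0608), +IL-11 replicate 1 (0.0537), +IL-11 replicate 2 (0.0807), +IL-11+bFGF replicate 2 (0.0951). SLC25A22 lost it without -bFGF replicate 1 (0.0504), +bFGF replicate 1 (0.0728), -bFGF replicate 2 (0.0542), +bFGF replicate 2 (0.0603), +IL-11 replicate 1 (0.0952), +IL-11+bFGF replicate 1 (0.0931), and SLC25A13 lost it whichever array was left out, at adjusted p up to 0.169 without +IL-11+bFGF replicate 1. The phosphate carrier SLC25A3 (log2 change -0.02), the ADP/ATP translocase SLC25A4 (0.02) and the citrate carrier SLC25A1 (-0.02) were not called.

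The SLC27 proteins import and activate fatty acids, and 3 of them were the only calls among 7 tested genes of the lipid and bile acid class. All 3 were higher with bFGF, while of all genes tested 13.4% rose and 14.5% fell. SLC27A3 was at 9.43 to 9.69 on the 4 arrays without bFGF and at 9.87 to 10.00 on the 4 with it (1.3-fold, log2 change 0.38, SE 0.08, adjusted p = 0.00627). SLC27A2 was 1.33-fold higher (log2 change 0.41, SE 0.12, adjusted p = 0.0289) and SLC27A5 1.25-fold (log2 change 0.32, SE 0.10, adjusted p = 0.0395). The call of SLC27A2 was lost without +bFGF replicate 1 (0.0657), -bFGF replicate 2 (0.0754), +bFGF replicate 2 (0.0823), +IL-11 replicate 1 (0.0604), +IL-11 replicate 2 (0.0881), +IL-11+bFGF replicate 1 (0.107), and that of SLC27A5 without -bFGF replicate 1 (0.0751), +bFGF replicate 1 (0.106), -bFGF replicate 2 (0.0612), +bFGF replicate 2 (0.0803), +IL-11 replicate 2 (0.137), +IL-11+bFGF replicate 1 (0.131), +IL-11+bFGF replicate 2 (0.0521). SLC27A1 and SLC27A6 had log2 changes of -0.12 and -0.14 and were not called.

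The remaining rises were spread over other roles. SLC15A3 (PHT2), a lysosomal carrier of histidine and small peptides, read 8.38 and 8.06 in -bFGF, 8.25 and 8.21 in +IL-11, 9.11 and 8.90 in +bFGF and 8.73 and 9.01 in +IL-11+bFGF. It was higher on every array with bFGF (1.64-fold, log2 change 0.71, SE 0.11, adjusted p = 0.00126). SLC37A1, a glucose-6-phosphate carrier of the ER, was 1.53-fold higher (log2 change 0.62, SE 0.14, adjusted p = 0.00953), and its arrays overlapped, since -bFGF replicate 2 (7.17) was above +IL-11+bFGF replicate 2 (7.02). By the methods' t-test its adjusted p was 0.0801. SLC33A2 was at 11.24 to 11.54 without bFGF and at 11.74 to 11.96 with it (1.39-fold, log2 change 0.47, SE 0.08, adjusted p = 0.00233). SLC12A4 (KCC1), a potassium-chloride cotransporter, was 1.32-fold higher (log2 change 0.40, SE 0.11, adjusted p = 0.021), a call lost without +bFGF replicate 1 (0.0615), +bFGF replicate 2 (0.0556), +IL-11 replicate 2 (0.0804), +IL-11+bFGF replicate 1 (0.0731).

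The remaining falls were SLC22A17, SLC66A2 and SLC49A4. SLC22A17, a receptor for lipocalin 2, read 9.80 and 10.27 in -bFGF, 9.69 and 9.77 in +IL-11, 9.39 and 9.46 in +bFGF and 9.21 and 9.51 in +IL-11+bFGF (1.41-fold lower, log2 change -0.49, SE 0.11, adjusted p = 0.00993; adjusted p = 0.0584 by the methods' t-test). SLC66A2 was at 11.03 to 11.27 without bFGF and at 10.65 to 10.86 with it (1.32-fold lower, log2 change -0.40, SE 0.07, adjusted p = 0.0024). SLC49A4, a protein of the lysosomal membrane, was 1.19-fold lower (log2 change -0.25, SE 0.07, adjusted p = 0.0213), a call lost without -bFGF replicate 1 (0.05), +bFGF replicate 1 (0.0706), +IL-11 replicate 1 (0.0661), +IL-11 replicate 2 (0.0502), +IL-11+bFGF replicate 1 (0.0627), +IL-11+bFGF replicate 2 (0.0587). Of all 37 calls, 24 held whichever of the 8 arrays was left out, and all 37 kept their sign. The 24 include SLC40A1, SLC52A3 and SLC1A4, which passed the filter only through conditions without bFGF, and leaving out an array does not test that. By the methods' t-test, the calls of SLC7A3 (adjusted p = 0.0541), SLC12A4 (0.057) and SLC27A2 (0.0636) were also lost.

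**Figure D3:**
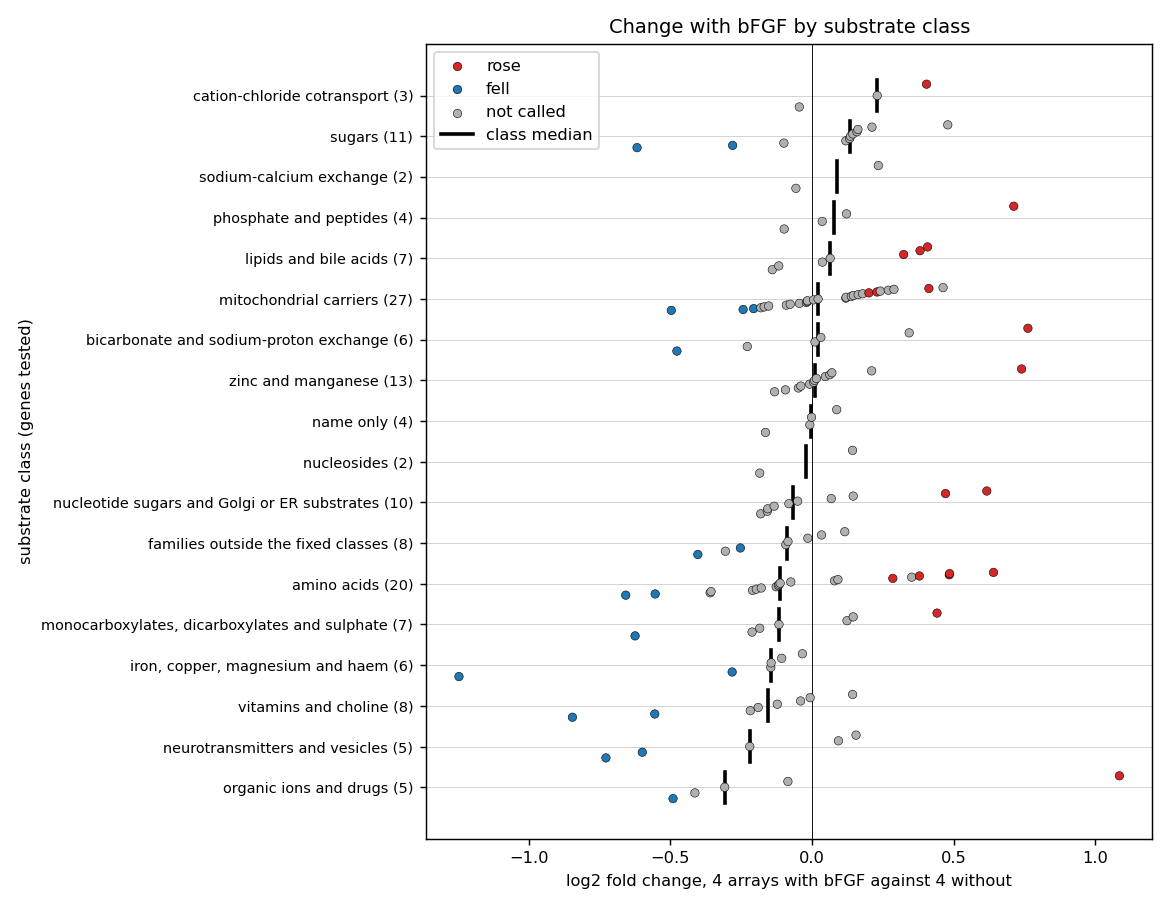
Log2 fold change of each tested transporter between the 4 arrays with bFGF and the 4 without (horizontal axis), by substrate class with the number of genes tested in brackets (vertical axis). Each point is a gene, red where it rose, blue where it fell and grey where it was not called, and the bar is the class median, which lay between -0.31 (organic ions and drugs) and 0.23 (cation-chloride cotransport).

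The members that moved were next compared for 3 short sequences in their promoters. RefSeq windows (GRCh38.p14) from 250 bases before to 50 after the gene start were matched by gene identifier to 125 of the 148 tested transporters. The windows were searched on both strands for CACGTG (E-box), CCGGAA (ETS) and TGATGNAA (C/EBP-ATF composite), and no match in the windows of called genes overlapped another. The E-box was found in 0 of 13 windows of genes that rose and 2 of 16 that fell, against 7.43% of all 27305 windows, 10.5% of those of genes tested and 8.80% of those of the tested transporters. The ETS sequence was found in 2 of 13 and 3 of 16, against 17.6%, 29.9% and 27.2%, and the composite in 2 of 13 and 1 of 16, against 3.67%, 1.61% and 5.60%. A match is a description and not a binding site. The 250 bases before the start are shown for the largest rise, the largest fall and SLC16A9, 1 of the 2 falls whose windows hold an E-box (the other is SLC25A13), in lower case with the matches in capitals. None of the 3 sequences was found in the windows of SLC22A23 and SLC40A1.
SLC22A23, chr6:3324151-3324400, minus strand: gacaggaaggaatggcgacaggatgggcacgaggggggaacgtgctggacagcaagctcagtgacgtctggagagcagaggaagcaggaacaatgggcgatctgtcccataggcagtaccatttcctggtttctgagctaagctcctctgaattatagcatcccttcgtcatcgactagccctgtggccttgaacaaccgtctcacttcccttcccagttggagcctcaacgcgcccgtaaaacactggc
SLC40A1, chr2:189580787-189581036, minus strand: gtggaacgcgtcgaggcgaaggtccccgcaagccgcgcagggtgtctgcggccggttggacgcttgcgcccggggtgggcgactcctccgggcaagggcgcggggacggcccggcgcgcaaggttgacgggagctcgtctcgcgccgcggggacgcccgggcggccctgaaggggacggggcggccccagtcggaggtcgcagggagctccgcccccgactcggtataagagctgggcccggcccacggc
SLC16A9, chr10:59710080-59710329, minus strand: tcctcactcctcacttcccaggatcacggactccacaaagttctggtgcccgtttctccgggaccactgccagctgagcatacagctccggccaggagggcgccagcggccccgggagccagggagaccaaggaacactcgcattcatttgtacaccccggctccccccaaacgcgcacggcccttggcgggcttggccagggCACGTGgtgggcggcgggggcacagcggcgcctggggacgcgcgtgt

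SLC7A1 was the only transporter called whose window holds both the composite and the ETS sequence, and both lie after the start. Bases 3 to 32 of the transcribed strand, counted from 1 at the start, are shown with both in capitals.
SLC7A1, chr13:29595657-29595686, minus strand: actgcTGATGAAAcctggcgCCGGAAcccg

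The change with bFGF was then taken separately in the absence and in the presence of IL-11, which share no array. Between +bFGF and -bFGF, 19 of 148 transporters were called (12.8%, against 15.3% of all genes), 9 higher (6.08%, against 7.33%) and 10 lower (6.76%, against 7.96%). Between +IL-11+bFGF and +IL-11, 16 were called (10.8%, against 11.3%), 9 higher (6.08%, against 5.63%) and 7 lower (4.73%, against 5.67%). The 2 lists shared 10 genes, 52.6% of the first and 62.5% of the second, and all 10 had the same sign. The shared calls over all genes were not counted, so these shares are not a result about the transporters. The 10 genes were SLC22A23, SLC4A7, SLC39A14, SLC15A3 and SLC33A2, which were higher, and SLC52A3, SLC6A8, SLC16A9, SLC44A2 and SLC45A3, which were lower. Of these, SLC52A3 passed the detection filter only through the -bFGF arrays, where it was high. In the second comparison it was detected on 1 +IL-11 array and 0 +IL-11+bFGF arrays, so its place in both lists is a description only. Every gene called in either was called over all 8 arrays as well, which hold the same values, and 12 were called over all 8 only.

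Both separate counts rest on 2 arrays a side and moved with single arrays. For +bFGF against -bFGF, 10 were called when -bFGF replicate 2 was left out, 10 when +bFGF replicate 1 was and 6 when +bFGF replicate 2 was, beside 713, 623 and 604 of all 9269 genes. For +IL-11+bFGF against +IL-11, the counts were 6 without +IL-11 replicate 1, 3 without +IL-11 replicate 2, 5 without +IL-11+bFGF replicate 1 and 9 without +IL-11+bFGF replicate 2, beside 448, 416, 401 and 760 of all genes. SLC22A23, SLC4A7 and SLC16A9 kept the call in both comparisons whichever array was left out, and SLC39A14 did so in the first only, which makes 4 such genes there and 3 in the second. SLC22A23 was 2.09-fold higher with bFGF in the absence of IL-11 and 2.15-fold in its presence, SLC4A7 1.63-fold and 1.77-fold, and SLC16A9 1.55-fold and 1.53-fold lower. Across the 148 transporters the 2 log2 changes had a Pearson correlation of 0.78 and the same sign in 114, against 0.87 and the same sign in 7146 across all 9269 genes. These are correlations across genes on arrays normalized together, and genes are not independent replicates.

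**Figure D4:**
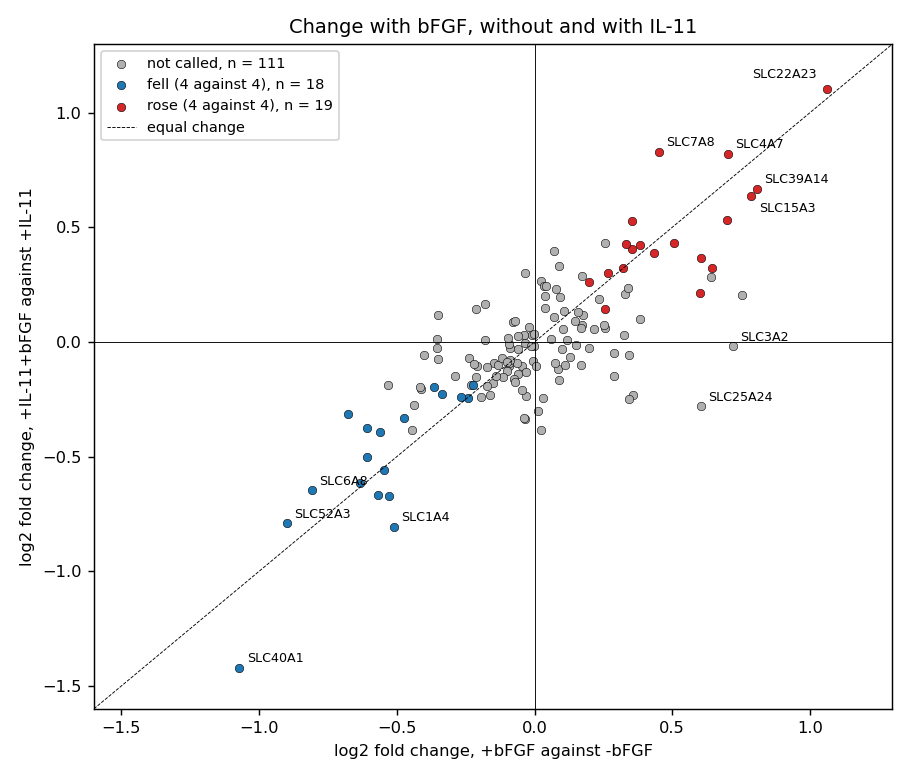
Log2 fold change of 148 transporters with bFGF, without IL-11 (+bFGF against -bFGF, horizontal axis) and with it (+IL-11+bFGF against +IL-11, vertical axis), 2 arrays a side. Points are genes, coloured by the call over all 8 arrays, and the dashed line marks equal change. SLC22A23 lies near the line at 1.06 and 1.11, while SLC3A2 (0.72 and -0.02) and SLC25A24 (0.61 and -0.28) lie off it.

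A test of the difference between these 2 changes called 0 of 148 transporters and 0% of all genes, with 2 transporters at an unadjusted p under 0.05, SLC10A7 and SLC25A24, and 176 of 9269 genes. The interval of that difference was wide, with a median half-width of 0.47 on the log2 scale (95% confidence), or about 1.38-fold, before adjustment for the number of genes. Larger differences also went uncalled: they ran from -0.89 to 0.47 (log2), and the smallest adjusted p by limma was 0.998. No transporter can thus be said to respond to bFGF differently in the presence of IL-11, nor to respond alike.

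IL-11 alone was compared with the bFGF deprived control. By limma, 0 of 148 transporters were called between +IL-11 and -bFGF, as were 0% of all genes. At an unadjusted p under 0.05 there were 6 transporters and 492 of 9269 genes, and the methods' t-test called 0 transporters after adjustment. The log2 changes of the transporters ran from -0.51 (SLC38A7) to 0.81 (SLC25A24), and the smallest adjusted p was 0.813. The median half-width of the 95% interval was 0.33 on the log2 scale, or 1.26-fold. Without -bFGF replicate 1, 2 transporters were called among 9 of 9269 genes, and both were higher with IL-11. They were SLC25A24, an ATP-magnesium/phosphate carrier of mitochondria (log2 change 1.26), and SLC3A2, the heavy chain that SLC7 light chains need at the cell surface (1.38), each at adjusted p = 0.0448. In that setting the -bFGF condition is replicate 2 alone, and a lone array was assumed to vary like the others.

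Between +IL-11+bFGF and +bFGF, limma called 0 of 148 transporters and 0% of all genes, and the methods' t-test 0 transporters. At an unadjusted p under 0.05 there were 2 transporters, the carnitine importer SLC22A5 (log2 change 0.40) and SLC37A1 (-0.48), and 161 of all genes. The log2 changes of the transporters ran from -0.48 to 0.40.

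Single arrays stood apart for some members, which were picked out after their values were seen. SLC3A2 was at 9.14 and 7.74 in -bFGF, 9.05 and 9.19 in +IL-11, 9.32 and 8.99 in +bFGF and 9.22 and 8.99 in +IL-11+bFGF, so that -bFGF replicate 2 was the lowest by over 1. It was not called with bFGF (log2 change 0.35, SE 0.25, adjusted p = 0.324). On the same array SLC25A24 (7.32, against 8.22 to 8.64 elsewhere), SLC2A14 (6.77, against 7.54 to 8.26), SLC25A40 (7.04, against 7.47 to 8.17) and SLC25A36 (7.69, against 8.18 to 8.39) were also lowest, and none of them was called. In all, 8 transporters were over 0.5 below their median on it and 11 over 0.5 above. Those above include SLC6A8, SLC45A3, SLC4A2, SLC22A17, SLC25A29, SLC40A1 and SLC52A3, all called lower with bFGF over all 8 arrays. Those 7 calls held when this array was left out of that comparison. In +bFGF against -bFGF, however, SLC6A8, SLC45A3, SLC4A2, SLC22A17 and SLC52A3 lost their call without it. There SLC25A29 kept its call and SLC40A1 had none.

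A second set of probes split the +bFGF arrays. SLC16A12, a creatine carrier, was at 12.56 and 12.66 in -bFGF, 12.12 and 12.39 in +IL-11, 12.68 and 11.83 in +bFGF and 12.10 and 12.27 in +IL-11+bFGF, and SLC44A4, a carrier of thiamine pyrophosphate, at 12.24 and 12.44 in -bFGF, 11.86 and 12.17 in +IL-11, 12.39 and 11.59 in +bFGF and 11.91 and 12.06 in +IL-11+bFGF. Both were lower on +bFGF replicate 2 than on replicate 1, and over the 8 arrays their levels correlated at r = 0.99, a description over 8 arrays that share their scaling. Across all genes tested, 44 other genes followed SLC16A12 at r over 0.95 and 66 followed SLC44A4. SLC4A5 (8.64 and 7.82 in +bFGF) and SLC7A5P2 (15.26 and 14.86) showed the same order. SLC7A5P2 is a pseudogene of SLC7A5, which was left out by the rule, and its probe may read both. None of the 4 was called in any comparison.

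**Figure D5:**
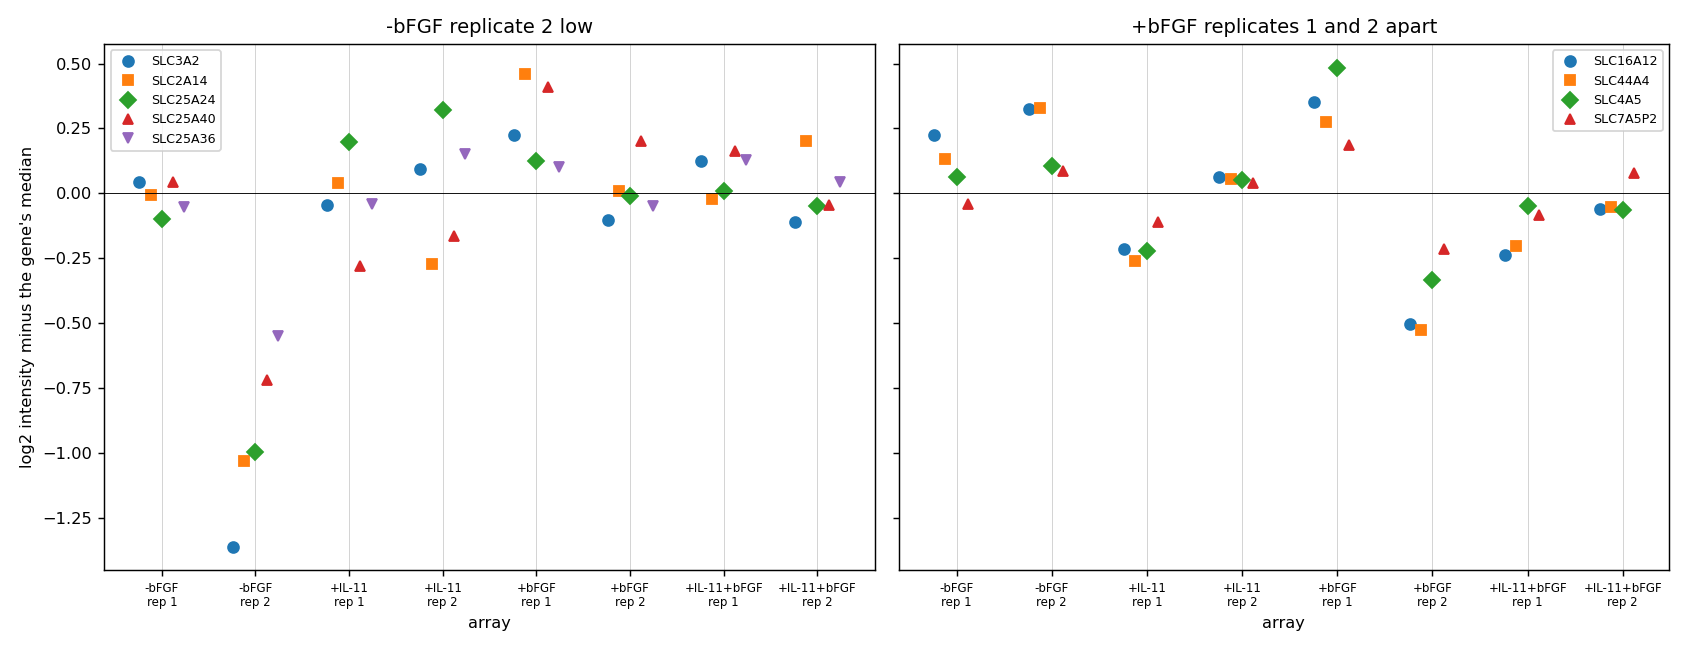
Normalized log2 intensity of 9 transporters on each array, as the difference from the gene's median over 8 arrays (vertical axis), by array (horizontal axis, 2 replicates per condition). In the left panel -bFGF replicate 2 is the lowest array for all 5 genes, and in the right panel +bFGF replicate 1 is the highest array for SLC16A12, SLC4A5 and SLC7A5P2 and replicate 2 the lowest for all 4 genes.

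Detection itself differed between conditions for 5 transporters. Besides SLC52A3 and SLC1A4, described above, SLC47A1 (MATE1), an exporter of organic cations, was detected on all 4 arrays without bFGF, on no +bFGF array and on 1 +IL-11+bFGF array. Its log2 change over all arrays was -0.41 and did not pass (adjusted p = 0.0764). SLC27A6 was detected on both -bFGF arrays, 1 +IL-11 array, no +bFGF array and 1 +IL-11+bFGF array. The glucose transporter family member SLC2A11 was detected on no -bFGF array, both +IL-11 arrays, 1 +bFGF array and both +IL-11+bFGF arrays. Their levels lay close to the detection limit, at 5.96 to 6.76 for SLC27A6 and 6.04 to 6.57 for SLC2A11, and neither was called in any comparison.

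For 14 transporters more than 1 probe was detected, with 17 further probes in all, and 11 of these 17 had a log2 difference with bFGF of the same sign as the brighter probe. Only 3 of the 17 were called, the second probe of SLC25A29 given above and those of SLC25A26 and SLC26A6. Tested over all detected probes, SLC25A26, the mitochondrial S-adenosylmethionine carrier, had probes at log2 changes of 0.24, 0.40 and -0.06, of which the second was called (adjusted p = 0.0438). A second probe of SLC26A6, an anion exchanger, was also called (0.46, adjusted p = 0.0352), and the brighter one was not (0.15). The probes of a gene may read different transcripts, so these genes are uncertain. The second probe of SLC7A3 was at 0.25 and was not called.

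Other gene groups, taken by symbol alone, gave a background for these counts. Of 19 tested genes with ABC symbols, not all of which need be transporters, 2 rose (ABCE1 and ABCB6) and 4 fell with bFGF (31.6%). Of 31 tested P-type and V-type pumps, 1 rose and 9 fell (32.3%), and of 2 tested organic anion transporters of the SLCO family SLCO1A2 fell. The transporters described here had 25.0% called and all genes 27.8%. The median log2 change was -0.17 for the ABC genes, -0.07 for the pumps and -0.02 for the solute carriers, and these differences between groups were not tested.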

How the data were processed

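Total RNA from 4 conditions, 8 samples in all, was read on Illumina BeadChips. The authors deposited probe intensities as read, each beside a detection p-value that compares it with negative controls, and their own normalized, background-subtracted intensities in another table. GenomeStudio is named in the submitters' processing notes, and its version is not given in the sources used here. Probes were named from the platform annotation through current identifiers (21834 of 24526 have 1 symbol, 2692 are unnamed here and 0 have several). With limma 3.58.1 in R 4.3.3, intensities before normalization were corrected (neqc, offset 16, negative controls inferred from the detection p-values), then quantile normalized and taken to log2. Probes had to be detected (p under 0.01) on the pair of arrays of 1 or more conditions, and the probe with the highest mean stood for its gene. A fit with 4 condition means over all 8 arrays and an intensity trend gave the tests, with 4 residual and 5.69 prior degrees of freedom. The median standard error of the transporters' log2 change was 0.10 over 8 arrays and 0.15 over 4. The fit was also run on simulated data, 10 runs with 200 of 9269 genes changed, with levels and spread taken from the fit itself. At an adjusted p under 0.05 by limma, 5.76% of calls were false over 8 arrays and 7.29% for +bFGF against -bFGF. Changes of 1.5-fold were called in 85.6% and 55.2% of cases. Genes were named by a rule: the 10 largest rises and falls without overlap, those of smallest adjusted p in each comparison and class, the 3 of highest level per class, and those whose probes or detection differ, with some left out for length. Other genes were named outside this rule, among them SLC1A3, SLC1A5, SLC7A3 and SLC25A24, and some of these were picked after their values were seen. The members, classes and lists were chosen with earlier results of these data known. As alternatives, the fit was repeated on the authors' normalized table, uncorrected or median-scaled intensities, with looser and stricter detection, every detected probe, no trend or a replicate block, on the compared arrays alone, with the methods' t-test, and without each array in turn. Promoter windows come from RefSeq (GRCh38.p14), and no probe sequence or coordinate was used here.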

Additional observations from a re-analysis of the deposited data

How the results depend on the processing

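The count of transporters called over 8 arrays (37 of 148, beside 2580 of 9269 genes) lay between 31 and 42 under the alternatives that keep every array. The 31 are of 148 by the methods' t-test, beside 2241 of 9269 genes. The 42 are of 326 without a detection filter, beside 2547 of 16919 genes. With 1 array left out the count lay between 25 and 37, beside 1805 to 2434 of 9269 genes. For +bFGF against -bFGF (19) it was 12 with only the arrays compared, 0 under the methods' t-test and 6 to 22 with 1 array left out. For +IL-11+bFGF against +IL-11 (16) it was 0 under the methods' t-test and 3 to 16 with 1 array left out. For +IL-11 against -bFGF it was 0, or 0 to 2 with 1 array left out, and it stayed 0 for +IL-11+bFGF against +bFGF and for the difference of the 2 changes. The causes of these moves were not tested beyond there being fewer arrays. With a replicate block the counts were 39, 23 and 17, beside 2719, 1648 and 1211 of all genes. But the labels do not say that a number marks a shared batch, and the correlation of same-numbered deviations was between -0.06 and 0.20. No called change of a named transporter reversed its sign, and 20 of 37 calls held under every alternative that could be run. These include SLC52A3 and SLC1A4, which could not be run with detection on all 8 arrays, so for them the filter was not tested. The precision is limited by 2 arrays a condition and, near background, by the detection limit.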
